A study of Bos taurus with 6 samples.

Results

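Integrins, cadherins, protocadherins, syndecans and basement membrane components were followed as 1 gene module in bovine bone marrow mesenchymal stem cells (MSCs). The genes were taken by symbol: every probe set whose single gene symbol in the platform annotation named an integrin, a numbered cadherin, a protocadherin, a syndecan, a laminin chain, a nidogen, a type IV collagen chain, perlecan (HSPG2) or agrin. Each gene was represented by its brightest probe set, by mean log2 signal over the 6 arrays with values under 15 raised to 15. This gave 49 of the 9155 genes with a named probe set: 12 integrin alpha chains, 7 integrin beta chains, 4 integrin-named binding or related genes, 11 basement membrane genes, 10 cadherins, 3 protocadherins and 2 syndecans. The rule took genes by symbol and not by a measured difference between conditions, though it was chosen with earlier results of these data known.

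Cells hold on to their surroundings through these proteins. Integrins pair an alpha with a beta chain, bind matrix proteins outside the cell and link them to actin inside it, while cadherins bind the cadherins of neighbouring cells through calcium-dependent contacts. Syndecans are membrane proteoglycans whose heparan sulphate chains bind growth factors and matrix. Laminins and type IV collagen form the sheet-like networks of basement membranes, which nidogens and perlecan tie together. Cartilage has no continuous basement membrane, though its cells are surrounded by a pericellular matrix that holds perlecan, and N-cadherin is known for the cell condensation that precedes cartilage in the embryo.

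Each of 6 Affymetrix arrays measured total RNA from 1 condition, all of them MSCs in agarose hydrogel in chemically defined medium. With transforming growth factor beta 3 (TGF-beta3), the growth factor used here to induce cartilage differentiation, there were unloaded constructs at days 21 and 42 and a day 42 construct that had received dynamic compression over its last 21 days. Without TGF-beta3 there were unloaded constructs at days 3, 21 and 42, which the labels call undifferentiated. There was 1 array per condition and no replicate, so precision is limited by the number of arrays. How many donors or constructs went into an array is not stated in the sources used here. Because RNA came from whole constructs, fewer cells of a type and less RNA per cell cannot be told apart.

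Values are the authors' signal intensities on a linear scale. A floor was set at a signal of 15.1, the 40th percentile of all values. On the 6 arrays, 54.9% to 65.3% of probe sets lay above it. Hybridisation spikes, foreign transcripts added in fixed amounts, had medians of 5823 on the loaded and 7304 on the unloaded day 42 array with TGF-beta3, and of 2618 to 3727 on the other 4 arrays. On the log2 scale the unloaded day 42 array with TGF-beta3 was thus brighter in its spikes by 1.32 than the day 42 array without it, and this stands beside every day 42 comparison below. Of 8 MSC markers, LEPR lay under the floor on every array and 7 could be tested: NT5E rose with TGF-beta3, CD44, VCAM1 and CXCL12 fell, and ENG, THY1 and ALCAM did not pass. All 7 chondrocyte markers measured rose. The label undifferentiated did not match some of the markers at days 21 and 42 without TGF-beta3. There the adipocyte gene ADIPOQ had signals of 1.38, 332 and 290.1 at days 3, 21 and 42, and the cartilage collagen COL2A1 had 55.5, 2739 and 3202. Other markers of the same lists went the other way. On the same arrays the adipocyte gene LPL had 1854, 1217 and 1094. The chondrocyte markers HAPLN1 and COL11A1 had 3682, 3029 and 2759, and 4037, 3603 and 2366. CHAD, also of the chondrocyte list, stayed under the floor without TGF-beta3.

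Of the 49 genes, 22 were above the floor on all 6 arrays, 13 on 1 to 5 arrays and 14 on none. The 14 undetected genes had signals of at most 14.4. They were the cadherins CDH5, CDH16, CDH17 and CDH23, the protocadherin PCDH10, the type IV collagen chains COL4A3 and COL4A4, the integrin chains ITGA2, ITGA4, ITGAL, ITGAM, ITGB4 and ITGB6, and ITGB1BP2, the melusin gene known from muscle. Several of these are textbook markers of other cells: CDH5 of endothelium, ITGAL and ITGAM of leukocytes, ITGB4 and ITGB6 of epithelia.

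**Figure D1:**
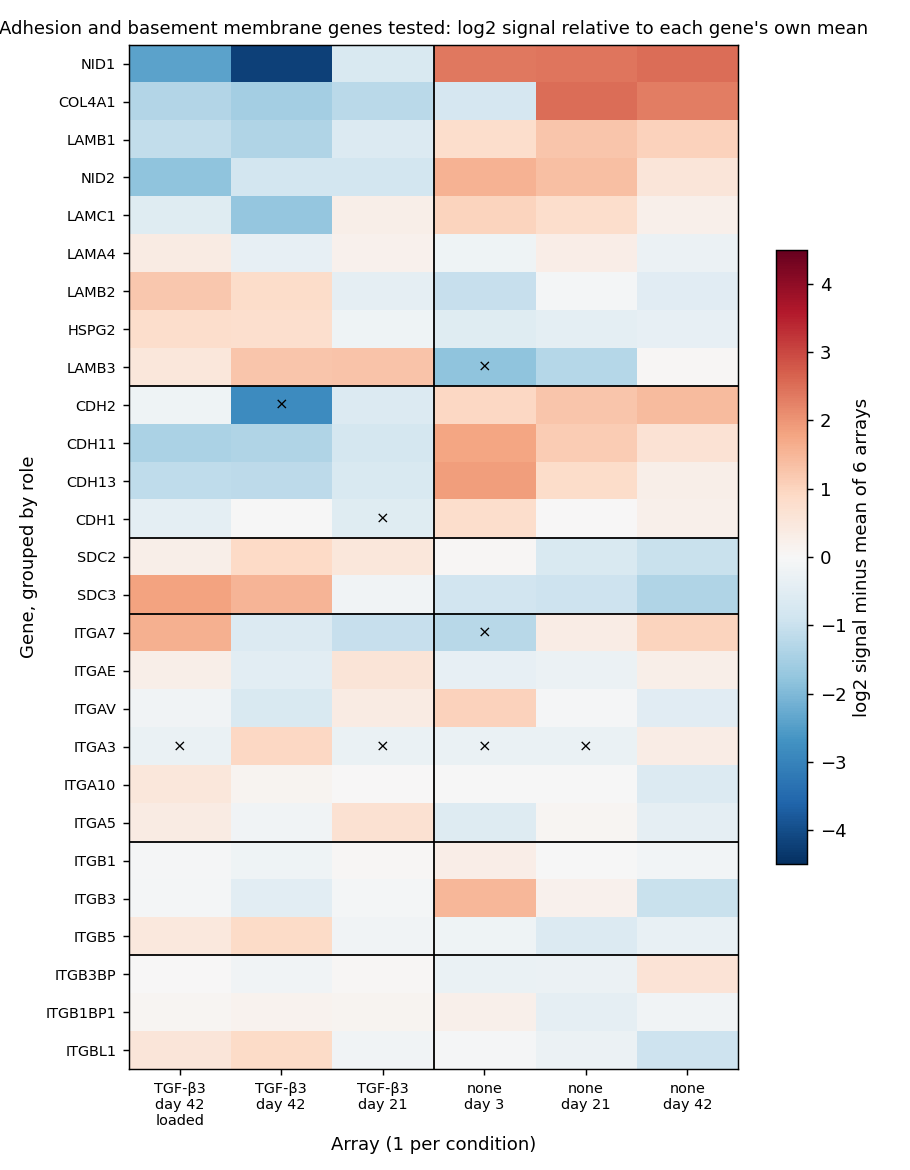
Log2 signal of the 27 genes tested, each relative to its own mean over the 6 arrays, where values under the floor were raised to it and marked with a cross; columns are arrays, rows are genes grouped by role. NID1, LAMB1, NID2, COL4A1, CDH1, CDH2, CDH11 and CDH13 were lower on every array with TGF-beta3 than on any array without it. SDC2, SDC3, LAMB3, HSPG2, ITGB5 and ITGA10 were higher. CDH1 was dim and did not pass, and a second CDH1 probe set was higher with TGF-beta3 at day 42. The share of all genes separated in this way was not computed.

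The effect of TGF-beta3 was asked with the unloaded arrays of days 21 and 42, which give 1 array on each side at each day. It was tested with limma over both days, with day as a term, on 27 of the 49 genes. The test calls a gene at an adjusted p under 0.05, and "rose" and "fell" refer to it. Its p-values rest on a spread pooled over all probe sets, and the spread between cultures was not measured. Of the 27 genes, 8 fell, 29.6%, against 7.7% of all 6835 genes tested, and 1 rose, 3.7%, against 7.11%. The 27 genes' median log2 difference was 0.04, against 0.14 for all genes tested. The genes that fell lay in the basement membrane group, with 5 of 9 tested, and among the cadherins, with 3 of 4. None of the 9 integrin chains tested passed. Because a gene enters the test only if at least 2 of the 4 arrays lie above the floor for it, these counts speak for the 27 genes alone. Another 8 genes were above the floor on some array of the 6 but did not meet this filter on the 4 arrays tested. A gene that did not pass is not shown to be unchanged. On simulated data the fit missed most changes of log2 1 and part of those of log2 2. Where all arrays with TGF-beta3 are said below to lie on 1 side of those without it, the share of all genes that do so was not computed.

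Nidogen 1 (NID1), which links the laminin network to type IV collagen, gave the largest difference in the module. Its signal was 53.4 in the loaded construct, 15.2 at day 42 and 176 at day 21 with TGF-beta3, against 1468, 1487 and 1606 at days 3, 21 and 42 without it. The sides were thus far apart, and the day 42 value with TGF-beta3 lay just above the floor. NID1 was 105-fold lower with TGF-beta3 at day 42 and 8.42-fold lower at day 21, and fell, with a mean log2 difference of -4.90 ± 0.48 (SE, adjusted p = 1.54e-11 by limma). Nidogen 2 (NID2), its paralogue, had 145 in the loaded construct, 283 at day 42 and 285 at day 21 with TGF-beta3, against 1478, 1299 and 735 at days 3, 21 and 42 without it. It fell, with a mean log2 difference of -1.78 ± 0.36 (SE, adjusted p = 2.44e-04 by limma), and was 2.59-fold lower at day 42 and 4.55-fold lower at day 21.

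COL4A1, the most widespread chain of type IV collagen, had signals of 21.9 in the loaded construct, 19.3 at day 42 and 24.0 at day 21 with TGF-beta3, against 32.2, 316 and 270 at days 3, 21 and 42 without it. The day 3 array therefore sat close to the arrays with TGF-beta3, and only days 21 and 42 without it were high. It fell, with a mean log2 difference of -3.76 ± 0.67 (SE, adjusted p = 3.01e-05 by limma), at 14.0-fold lower at day 42 and 13.2-fold lower at day 21. A second, dimmer COL4A1 probe set, under the floor at day 3, was lower by a mean log2 of 1.73 ± 0.65 and did not pass (adjusted p = 0.0699 by limma).

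Among the laminins, the chains of the cross-shaped trimers, LAMB1 and LAMC1 fell and LAMA4, LAMB2 and LAMB3 did not pass. LAMB1, a beta chain found in many laminins, had 499 in the loaded construct, 412 at day 42 and 695 at day 21 with TGF-beta3, against 1851, 2507 and 2210 at days 3, 21 and 42 without it. All arrays with TGF-beta3 were below all without it, and LAMB1 fell, with a mean log2 difference of -2.14 ± 0.34 (SE, adjusted p = 3.85e-06 by limma). LAMC1, the gamma chain shared by most laminins, had 760 in the loaded construct, 334 at day 42 and 1345 at day 21 with TGF-beta3, against 2205, 1925 and 1302 at days 3, 21 and 42 without it. Here the sides overlapped: the day 21 value with TGF-beta3 was above the day 42 value without it. LAMC1 fell, with a mean log2 difference of -1.24 ± 0.35 (SE, adjusted p = 0.0109 by limma). Without the day 42 array with TGF-beta3, in a fit with no day term, the difference was only -0.24. When the loaded array replaced the unloaded one it was -0.65 (adjusted p = 0.125 by limma). All 6 LAMC1 probe sets were below 0, between -1.67 and -0.36, and 4 of them fell. The overlap was that of the brightest probe set, which differed by log2 -0.52 at day 21. On the others, apart from the dimmest, the day 21 difference was -0.78 to -1.33 and the sides did not overlap.

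LAMA4, the alpha chain of vascular and fat tissue laminins, did not pass (mean log2 difference -0.10, adjusted p = 0.899 by limma), at 732 in the loaded construct, 447 at day 42 and 648 at day 21 with TGF-beta3, against 503, 696 and 476 at days 3, 21 and 42 without it. LAMB3, a chain of the laminin that anchors epithelia to dermis, had signals of 75.1 in the loaded construct, 123 at day 42 and 127 at day 21 with TGF-beta3, against 11.2, 21.4 and 55.0 at days 3, 21 and 42 without it. All its values with TGF-beta3 were above those without, though the mean log2 difference of 1.87 ± 0.71 did not pass (SE, adjusted p = 0.0705 by limma). LAMB2, a beta chain known from muscle and kidney basement membranes, had 384 in the loaded construct, 289 at day 42 and 124 at day 21 with TGF-beta3, against 79.4, 156 and 115 at days 3, 21 and 42 without it. Its difference was 1.33 on the log2 scale at day 42 and -0.33 at day 21, and its mean of 0.50 turned to -0.31 when arrays were scaled to the spikes. HSPG2, the core protein of perlecan, had 101 in the loaded construct, 96.8 at day 42 and 51.3 at day 21 with TGF-beta3, against 39.6, 42.7 and 44.8 at days 3, 21 and 42 without it. Its mean log2 difference of 0.69 did not pass (adjusted p = 0.595 by limma) and was -0.12 with spike scaling.

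**Figure D2:**
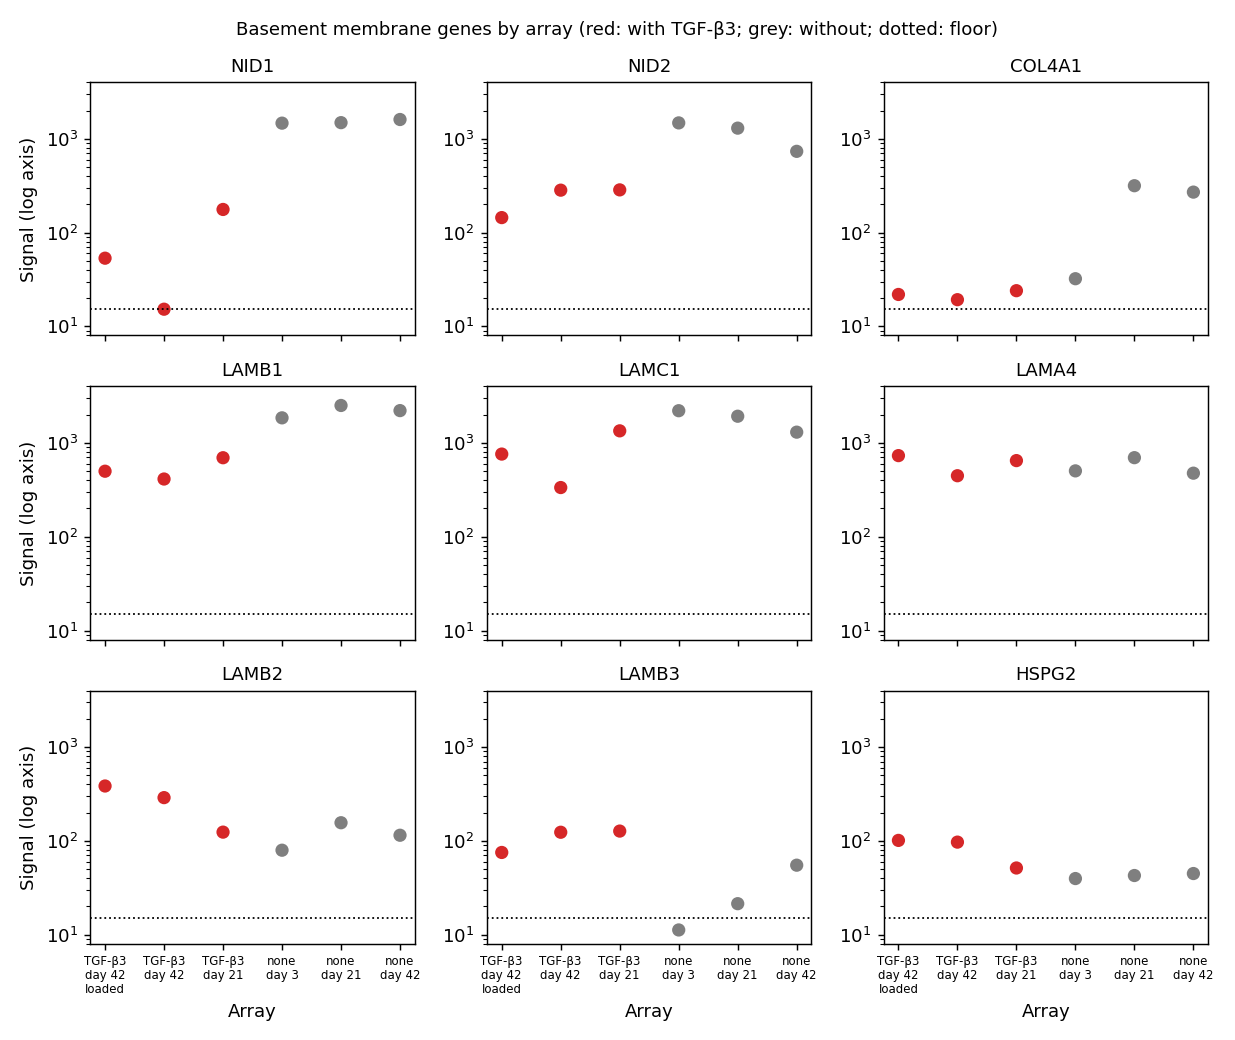
Signal of the 9 detected basement membrane genes by array on a log axis, with arrays with TGF-beta3 in red, arrays without it in grey and the floor of 15.1 dotted. NID1 reached 176 at most with TGF-beta3 and was at least 1468 without it, whereas LAMA4 lay between 447 and 732 on all arrays.

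Each of the 4 arrays was also left out in turn. Those fits had no day term, so the missing array and the missing term cannot be told apart. They also left 1 array on a side, so only their sizes are given here. With all 4 arrays and no day term, NID1, NID2 and LAMC1 already did not pass. With an array left out, the mean log2 difference was -3.13 to -6.66 for NID1 and -1.76 to -2.51 for LAMB1. It was -3.60 to -3.92 for COL4A1, -1.37 to -2.19 for NID2 and -0.24 to -2.24 for LAMC1. All 7 adipocyte markers also fell with TGF-beta3. Their summed signal was 745 in the loaded construct, 932 at day 42 and 471 at day 21 with TGF-beta3, against 5073, 15585 and 18262 at days 3, 21 and 42 without it. The summed signal of 10 leukocyte markers, of which 3 fell, was 91.9 to 240.0 on the 3 arrays with TGF-beta3 and 322 to 650 on the 3 without it. Of 9 endothelial markers, 4 were under the floor on all arrays, VWF and KDR among them, and 2 were tested, of which ERG rose and TEK did not pass. Their summed signal was 332 in the loaded construct, 276 at day 42 and 437 at day 21 with TGF-beta3, against 137, 143 and 78.4 at days 3, 21 and 42 without it. ERG made up most of this sum with TGF-beta3. It alone had 225 in the loaded construct, 210 at day 42 and 388 at day 21 with TGF-beta3, against 57.8, 80.2 and 30.3 at days 3, 21 and 42 without it. Of 7 smooth muscle and pericyte markers 5 were tested and 4 rose, namely ACTA2, TAGLN, CNN1 and DES, while RGS5 and MYH11 were under the floor on all arrays. Their summed signal was 2647 in the loaded construct, 2398 at day 42 and 6470 at day 21 with TGF-beta3, against 2473, 2274 and 1244 at days 3, 21 and 42 without it. The part of these other cell types in the basement membrane result was not tested.

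Among 12 other basement membrane and pericellular genes, 10 were tested, and 1 rose and 1 fell, with a median log2 difference of 0.25. Over all genes tested 7.11% rose and 7.7% fell, with a median of 0.14. SMOC2, a calcium-binding protein of basement membranes, rose by a mean log2 of 5.37 ± 0.58 (SE, adjusted p = 2.97e-10 by limma), and EFEMP1, a fibulin, fell by 4.69 ± 0.64 (SE, adjusted p = 1.67e-07 by limma). The floor bounds both means. SMOC2 was under it at day 42 without TGF-beta3, and EFEMP1 at day 21 with TGF-beta3.

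Of the 4 cadherins tested, 3 fell and none rose. N-cadherin (CDH2) had signals of 93.9 in the loaded construct, 1.12 at day 42 and 69.9 at day 21 with TGF-beta3, against 207, 257 and 290 at days 3, 21 and 42 without it. It was at least 19.1-fold lower with TGF-beta3 at day 42, where it was under the floor, and 3.67-fold lower at day 21. CDH2 fell, with a mean log2 difference of -3.07 ± 0.65 (SE, adjusted p = 4.66e-04 by limma), a mean that the floor bounds, and a mean of -1.75 when the loaded array replaced the unloaded one (adjusted p = 0.00507 by limma).

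CDH11, the cadherin of osteoblasts and loose mesenchyme, had 385 in the loaded construct, 400.1 at day 42 and 602 at day 21 with TGF-beta3, against 3535, 2289 and 1620 at days 3, 21 and 42 without it. All arrays with TGF-beta3 were below all without it, and CDH11 fell, with a mean log2 difference of -1.97 ± 0.34 (SE, adjusted p = 1.66e-05 by limma), with a second probe set at -2.21 that also fell. CDH13, a cadherin without a transmembrane domain that is anchored by a lipid and binds adiponectin, had 235 in the loaded construct, 229 at day 42 and 321 at day 21 with TGF-beta3, against 1904, 923 and 627 at days 3, 21 and 42 without it. It fell, with a mean log2 difference of -1.49 ± 0.36 (SE, adjusted p = 0.00272 by limma), again with no overlap between the sides. With no array left out but no day term, CDH2 and CDH13 already did not pass (adjusted p = 0.093 and 0.0737 by limma). CDH11 still fell in that fit (adjusted p = 0.0361 by limma). The fits with an array left out also had no day term, so the missing array and the missing term cannot be told apart. They left 1 array on a side, so only their sizes are given. With an array left out, the mean log2 difference was -1.96 to -4.17 for CDH2, -1.68 to -2.27 for CDH11 and -1.21 to -1.76 for CDH13.

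E-cadherin (CDH1), the epithelial cadherin, stayed dim, with signals between 12.7 and 37.5, and did not pass. A second CDH1 probe set was above the floor only with TGF-beta3 at day 42, at 20.7 in the loaded construct and 35.2 in the unloaded one. CDH3, or P-cadherin, had 15.3 in the loaded construct, 36.8 at day 42 and 0.69 at day 21 with TGF-beta3, against 16.0, 12.3 and 1.47 at days 3, 21 and 42 without it. CDH8 was above the floor only on the day 42 array with TGF-beta3, at 20.9. PCDH1, a protocadherin, had 30.0 in the loaded construct, 49.3 at day 42 and 2.03 at day 21 with TGF-beta3, against 6.89, 1.06 and 3.51 at days 3, 21 and 42 without it. Only the 2 day 42 arrays with TGF-beta3 were thus above the floor. PCDH12, an endothelial protocadherin, lay between 1.15 and 20.9. CDH3, CDH8, PCDH1 and PCDH12 were not tested. Of 9 catenins and other cadherin partners 8 were tested and 1 fell: plakoglobin (JUP), which ties cadherins to the cytoskeleton. JUP had signals of 1.38 in the loaded construct, 1.89 at day 42 and 6.64 at day 21 with TGF-beta3, against 39.9, 116 and 138 at days 3, 21 and 42 without it, and fell, with a mean log2 difference of -3.06 ± 0.71 (SE, adjusted p = 0.00159 by limma). The floor bounds the JUP mean, since its arrays with TGF-beta3 were under it. The catenin list as a whole had a median log2 difference of 0.10, against 0.14 for all genes tested, of which 7.11% rose and 7.7% fell.

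**Figure D3:**
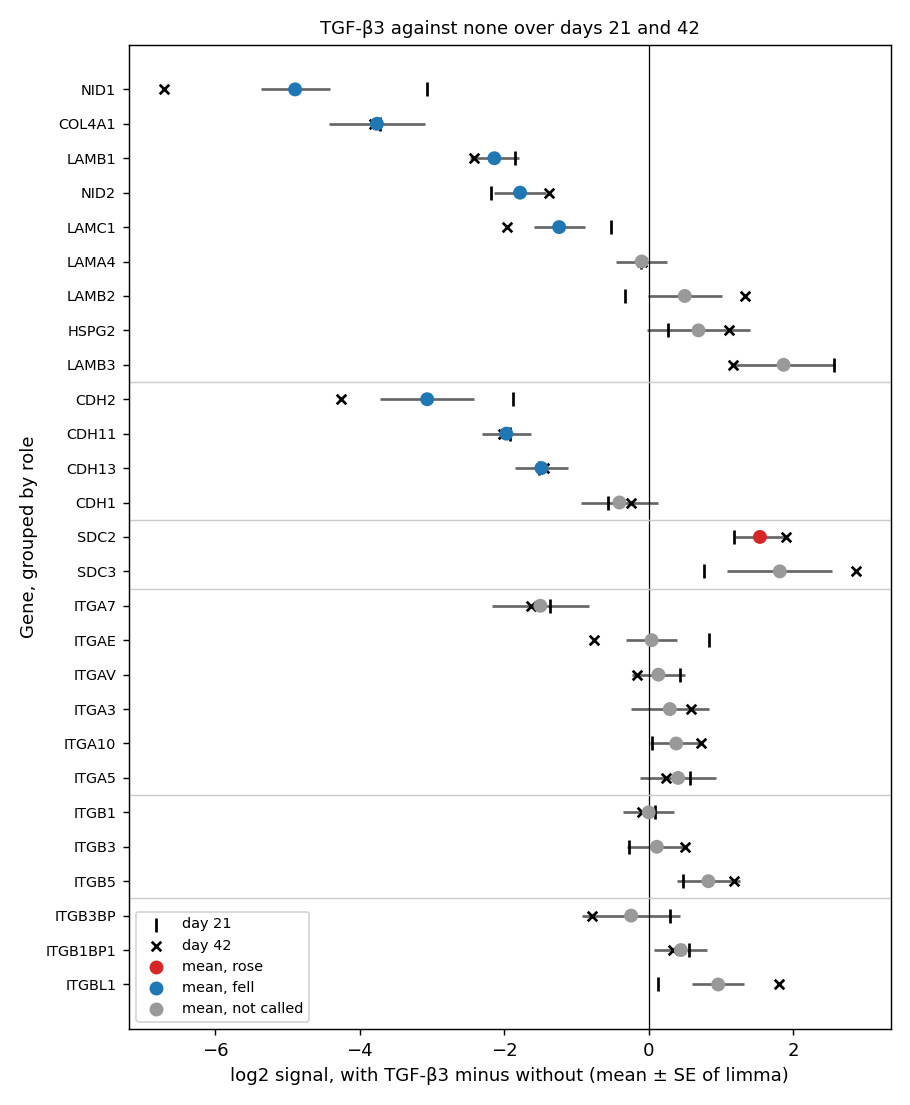
Log2 signal difference with TGF-beta3 minus without it for the 27 genes tested, grouped by role, with circles and bars for the limma mean and SE, vertical ticks for day 21 and crosses for day 42. The coloured circles mark 8 genes that fell, from NID1 at -4.90 to LAMC1 at -1.24, and SDC2, which rose by 1.54.

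Syndecan 2 (SDC2), the syndecan of mesenchymal cells, was the only gene of the 27 that rose on its brightest probe set. Its signal was 1114 in the loaded construct, 1736 at day 42 and 1331 at day 21 with TGF-beta3, against 973, 589 and 463 at days 3, 21 and 42 without it. All values with TGF-beta3 were above all without it. The gap was 3.75-fold at day 42 and 2.26-fold at day 21, and the mean log2 difference was 1.54 ± 0.34 (SE, adjusted p = 8.93e-04 by limma). A second SDC2 probe set differed by only 0.29 ± 0.34 and did not pass (SE, adjusted p = 0.643 by limma). The call on the brighter probe set was lost with median centring (1.30, adjusted p = 0.112 by limma) and with spike scaling (0.73, adjusted p = 0.608 by limma). The brighter probe set's mean log2 difference was 1.71 without the day 21 array lacking TGF-beta3 and 1.37 without the day 42 one, in fits that had no day term.

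Syndecan 3 (SDC3), known from the growing cartilage of the chick limb, had 238 in the loaded construct, 196 at day 42 and 60.2 at day 21 with TGF-beta3, against 37.0, 35.5 and 26.8 at days 3, 21 and 42 without it. All values with TGF-beta3 were higher, by 7.31-fold at day 42 and 1.70-fold at day 21. The mean log2 difference of 1.82 ± 0.73 did not pass over both days (SE, adjusted p = 0.0914 by limma). It passed when the loaded array replaced the unloaded one (1.96, adjusted p = 0.0215 by limma). Without the day 21 array with TGF-beta3, in a fit with no day term and 1 array on a side, the difference was 2.67. Among 12 glypicans and heparan sulphate enzymes 9 were tested, 2 rose and 1 fell, with a median of 0.68. Of all genes tested 7.11% rose and 7.7% fell, and their median was 0.14. The membrane-anchored glypicans GPC1 and GPC4 rose by mean log2 values of 1.71 ± 0.54 and 1.51 ± 0.51 (SE, adjusted p = 0.024 and 0.0375 by limma). The epimerase GLCE, which converts glucuronic to iduronic acid in heparan sulphate, fell by 3.73 ± 0.34 (SE, adjusted p = 1.85e-12 by limma).

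No integrin chain passed the test on its brightest probe set. Of the 19 chains, 6 were under the floor on all arrays and 9 were tested. The common beta chain ITGB1, the partner of most matrix-binding alpha chains, was nearly level, at 2347 in the loaded construct, 2104 at day 42 and 2533 at day 21 with TGF-beta3, against 2981, 2384 and 2236 at days 3, 21 and 42 without it. All 6 values lay close together, and the sign of its difference turned between settings. ITGB5, which pairs with the alpha V chain to bind vitronectin, had signals of 12663 in the loaded construct, 16469 at day 42 and 8263 at day 21 with TGF-beta3, against 7982, 5937 and 7283 at days 3, 21 and 42 without it. All values with TGF-beta3 were above those without, but the mean log2 difference of 0.83 ± 0.44 did not pass (SE, adjusted p = 0.223 by limma) and was -0.019 after quantile normalization. A second, dimmer ITGB5 probe set differed the other way, by -0.81 ± 0.54, and did not pass either (SE, adjusted p = 0.364 by limma). Without the day 21 array with TGF-beta3, in a fit without a day term, the brighter probe set differed by 1.32.

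ITGA10, the alpha chain of the cartilage collagen receptor, had signals of 795 in the loaded construct, 603 at day 42 and 571 at day 21 with TGF-beta3, against 545, 554 and 365 at days 3, 21 and 42 without it. The arrays with TGF-beta3 lay above those without, by so little that the mean log2 difference of 0.38 ± 0.36 did not pass (SE, adjusted p = 0.547 by limma), and it was -0.43 with spike scaling. A second ITGA10 probe set was further apart, at 349 in the loaded construct, 295 at day 42 and 363 at day 21 with TGF-beta3, against 184, 178 and 81.2 at days 3, 21 and 42 without it. This probe set rose by a mean log2 of 1.45 ± 0.46 (SE, adjusted p = 0.0262 by limma), so the pair of probe sets differed in their call.

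ITGA5, the fibronectin receptor's alpha chain, had 180 in the loaded construct, 123 at day 42 and 222 at day 21 with TGF-beta3, against 93.2, 149 and 104 at days 3, 21 and 42 without it, and the sides overlapped. Its 3 probe sets had mean log2 differences between 0.41 and 1.40, none of which passed. ITGA7, a laminin receptor chain of muscle, had 109 in the loaded construct, 23.5 at day 42 and 17.7 at day 21 with TGF-beta3, against 9.44, 45.5 and 73.1 at days 3, 21 and 42 without it. It was 3.11-fold lower with TGF-beta3 at day 42 and 2.58-fold lower at day 21, yet the highest of all 6 values was that of the loaded construct. The mean log2 difference of -1.50 ± 0.67 did not pass (SE, adjusted p = 0.139 by limma), though it did with spike scaling (-2.19, adjusted p = 0.0102 by limma). A second ITGA7 probe set went the other way at day 21, at 19.6 with TGF-beta3 and 1.72, under the floor, without it. At day 42 it was under the floor on both unloaded arrays.

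The vitronectin receptor chains ITGAV and ITGB3 were highest on the day 3 array, and their mean log2 differences with TGF-beta3 were 0.14 and 0.11, with signs that turned under median centring and spike scaling. ITGAE, the alpha chain known from lymphocytes in epithelia, had 1159 in the loaded construct, 698 at day 42 and 1435 at day 21 with TGF-beta3, against 750.2, 804 and 1176 at days 3, 21 and 42 without it. It was higher with TGF-beta3 by log2 0.84 at day 21 but lower, at -0.75, at day 42, and the mean of 0.04 did not pass. ITGA3, a laminin receptor chain, was dim, under the floor in the loaded construct, with 35.8 at day 42 and 7.76 at day 21 with TGF-beta3, against 11.4, 12.5 and 23.9 at days 3, 21 and 42 without it. ITGB7, a leukocyte chain, had 56.7 in the loaded construct, 22.3 at day 42 and 8.90 at day 21 with TGF-beta3, against 6.90, 12.1 and 9.24 at days 3, 21 and 42 without it. Of these dim chains ITGB7 was thus above the floor only on the 2 day 42 arrays with TGF-beta3. ITGA2B and ITGAD exceeded the floor only in the loaded construct, at 23.2 and 24.9, and ITGB2 only at day 42 with TGF-beta3, at 21.1.

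ITGBL1, a secreted protein with integrin-like repeats, had 1650 in the loaded construct, 2045 at day 42 and 1025 at day 21 with TGF-beta3, against 1090, 941 and 586 at days 3, 21 and 42 without it. The day 3 value without TGF-beta3 lay above the day 21 value with it. ITGBL1 was 3.49-fold higher at day 42, and its mean log2 difference of 0.96 ± 0.36 did not pass (SE, adjusted p = 0.0641 by limma). It passed in 5 of 15 alternative settings, which include fits with 1 array left out, but not with median centring (0.72) or spike scaling (0.16). Without the day 21 array with TGF-beta3, in a fit with no day term, it was 1.46. ITGB1BP1, which binds the tail of the ITGB1 chain, lay between 332 and 515, and ITGB3BP, a centromere protein despite its name, between 58.1 and 110.4.

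Partners of the integrins on either side of the membrane are a further part of the pathway. For this list and the next, the share over all genes tested was 7.11% for rose and 7.7% for fell, with a median of 0.14. Among 19 matrix ligands 18 were tested, 6 rose and 2 fell, and their median log2 difference was 0.97. COMP and TGFBI, both with integrin-binding sequences, rose by mean log2 values of 4.52 ± 0.34 and 4.15 ± 0.37 (SE, adjusted p = 2.13e-15 and 1.04e-12 by limma). FN1, POSTN, COL1A1 and COL1A2 were the other ligands that rose. THBS2, a thrombospondin, and FBN1, the main fibrillin, fell, with mean log2 differences of -3.70 ± 0.70 and -1.39 ± 0.35 (SE, adjusted p = 8.63e-05 and 0.0036 by limma). The floor bounds the THBS2 mean, since its day 42 array with TGF-beta3 was under it. Of 19 adaptors and focal adhesion genes 16 were tested, 2 rose and 1 fell, with a median of 0.44. PARVB, an adaptor in the integrin-linked kinase complex, and ACTN4, an actin cross-linker, rose by 2.16 ± 0.67 and 1.06 ± 0.37 (SE, adjusted p = 0.0218 and 0.0497 by limma), while vinculin (VCL), which couples talin to actin, fell by 1.40 ± 0.38 (SE, adjusted p = 0.00766 by limma). The PARVB mean is bounded by the floor, under which its day 21 and day 42 arrays without TGF-beta3 lay. The adaptor list shares ITGB1BP1 with the integrin-named genes above.

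**Figure D4:**
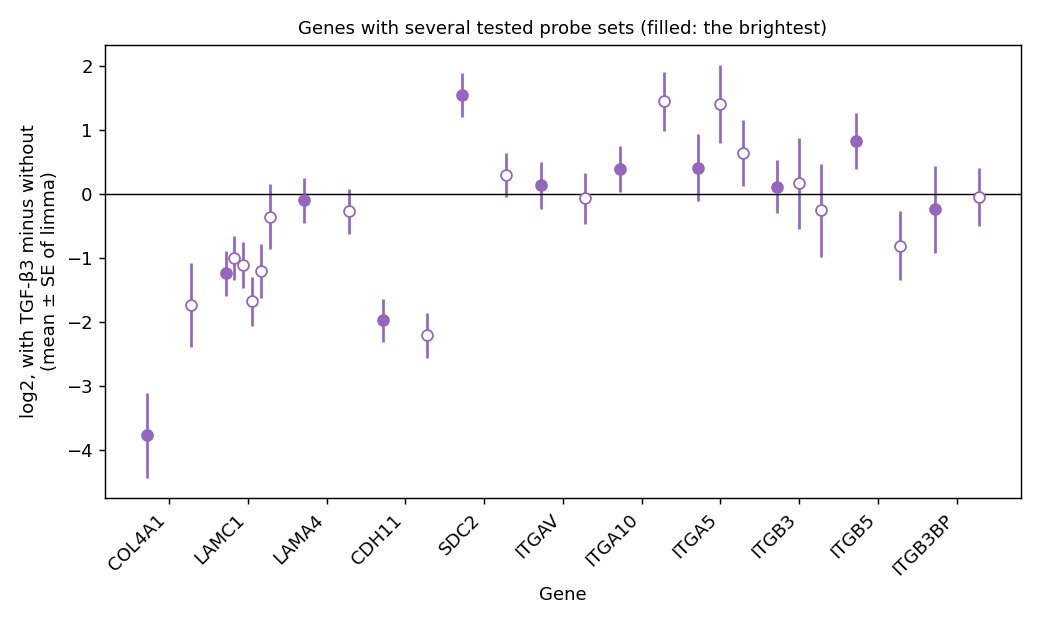
Limma mean log2 difference with TGF-beta3 minus without it, with its SE, for every tested probe set of the 11 genes with several, where the filled circle is the brightest probe set. The probe sets had 1 sign in 8 of the 11 genes, and those of ITGB5 lay at 0.83 and -0.81.

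By size alone, with 1 array on each side and no test, 26 of the 49 genes could be compared at day 21 and 32 at day 42, the others being under the floor on both arrays. At day 21, 8 genes were at least 2-fold lower with TGF-beta3, 30.8% against 14% of all genes compared, and 2 were at least 2-fold higher, 7.69% against 14.3%. The 2 higher genes were LAMB3 and SDC2, and the lower ones were NID1, COL4A1, LAMB1, NID2, CDH2, CDH11, CDH13 and ITGA7. At day 42, 9 genes were lower, 28.1% against 15.7%, and 9 were higher, 28.1% against 25.5%. LAMC1 joined the lower genes. The 9 higher ones were SDC2, SDC3, ITGB5, ITGBL1, LAMB2, LAMB3, HSPG2, CDH3 and PCDH1. The day 42 split turned on the scaling: it was 9 higher and 9 lower with the authors' scaling, 5 and 11 with median centring, and 1 and 16 with spike scaling. All genes moved with it: their median log2 difference at day 42 was 0.22, -0.32 and -1.05 in these settings.

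With TGF-beta3, NID1, LAMC1 and CDH2 were lower at day 42 than at day 21. Of 32 genes compared between day 42 and day 21, 5 were at least 2-fold lower, 15.6% against 11.1% of all genes, and 5 were higher, 15.6% against 19.7%. NID1 was 11.6-fold lower at day 42 than at day 21, LAMC1 4.02-fold, CDH2 at least 4.62-fold, ITGAV 2.08-fold and ITGAE 2.06-fold. The LAMC1 value, log2 -2.01, is that of its brightest probe set. Its other probe sets, apart from the dimmest, were at -0.83 to -1.15. SDC3 was 3.25-fold and LAMB2 2.33-fold higher, and the dim genes CDH3, ITGA3 and PCDH1 were higher by bounds of at least 2.43-fold, 2.36-fold and 3.26-fold. The spikes were themselves brighter by log2 1.19 on the day 42 array, and the split of 5 higher and 5 lower became 0 and 17 with spike scaling, 4 and 7 with median centring and 5 and 3 after quantile normalization. The median log2 difference of all genes, 0.18, became -0.97, -0.11 and 0.10 in these settings.

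Without TGF-beta3, COL4A1 was higher and the vitronectin receptor chains were lower at day 21 than at day 3. Between day 21 and day 3, 28 genes were compared: 2 were at least 2-fold higher, 7.14% against 7.03% of all genes, and 3 were lower, 10.7% against 4.72%. COL4A1 was 9.81-fold higher at day 21 and ITGA7 at least 3.00-fold. The 3 lower genes were the vitronectin receptor chains ITGAV and ITGB3 and the cadherin CDH13. ITGAV had 463 in the loaded construct, 318 at day 42 and 661 at day 21 with TGF-beta3, against 1044, 489 and 356 at days 3, 21 and 42 without it. ITGB3 had 309 in the loaded construct, 237 at day 42 and 310.4 at day 21 with TGF-beta3, against 937, 375 and 168 at days 3, 21 and 42 without it. For both chains the day 3 array was the highest of the 6, and all 3 tested ITGB3 probe sets were at least 2-fold lower at day 21 than at day 3. With spike scaling the split of 2 higher and 3 lower became 5 and 0, and the median log2 difference of all genes went from 0.03 to 0.52.

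From day 21 to day 42 without TGF-beta3, 27 genes were compared. LAMB3 was 2.57-fold higher, 1 gene or 3.7% against 3.83% of all genes, and ITGB3 was 2.24-fold lower, 1 gene or 3.7% against 5.49%. The genes' median log2 difference was -0.23, against 0.06 for all genes compared. The split was 3 higher and 1 lower after quantile normalization and 4 and 0 with median centring, where the median of all genes was 0.11 and 0.41. These comparisons of days share the day 21 arrays with the comparisons of TGF-beta3.

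Dynamic compression was compared on the day 42 arrays with TGF-beta3, loaded against unloaded, without a replicate and hence without a test. Of 35 genes above the floor on at least 1 of these arrays, 5 were at least 2-fold higher, 14.3% against 8.41% of all genes compared, and 2 were lower, 5.71% against 7.41%. The median log2 difference of the 35 was 0.20, against -0.04 over all genes. CDH2 had a signal of 93.9 in the loaded construct and 1.12, under the floor, in the unloaded one, at least 6.20-fold higher. NID1 had 53.4 in the loaded and 15.2 in the unloaded construct, 3.50-fold higher, and LAMC1 760 and 334, 2.27-fold higher.

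CDH2, NID1 and LAMC1 had fallen with TGF-beta3, and in the loaded construct each remained below the day 42 array without TGF-beta3, which had signals of 290, 1606 and 1302. The same unloaded array enters both comparisons, so they are not independent. Of the other genes that fell, NID2 was 1.96-fold lower in the loaded construct, at 145 against 283 in the unloaded one, and COL4A1, LAMB1, CDH11 and CDH13 differed by less than 2-fold. The 5 brighter LAMC1 probe sets were higher with loading by log2 0.29 to 1.19.

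ITGA7 had 109 in the loaded and 23.5 in the unloaded construct, 4.64-fold higher, and a second, otherwise dim ITGA7 probe set was higher by at least log2 1.87. ITGB7, at 56.7 in the loaded and 22.3 in the unloaded construct, was 2.54-fold higher. The 2 lower genes were dim. CDH3 had 15.3 in the loaded and 36.8 in the unloaded construct, 2.40-fold lower, and ITGA3, under the floor in the loaded and at 35.8 in the unloaded construct, was at least 2.36-fold lower. The spikes were dimmer by log2 0.33 on the loaded array, and with spike scaling the split of 5 higher and 2 lower became 7 and 0. The median log2 difference of all genes went from -0.04 to 0.27 with it. The floor also decided the count: the split was 9 and 5 with the floor at the 25th percentile of all values and 1 and 0 with it at the 60th.

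**Figure D5:**
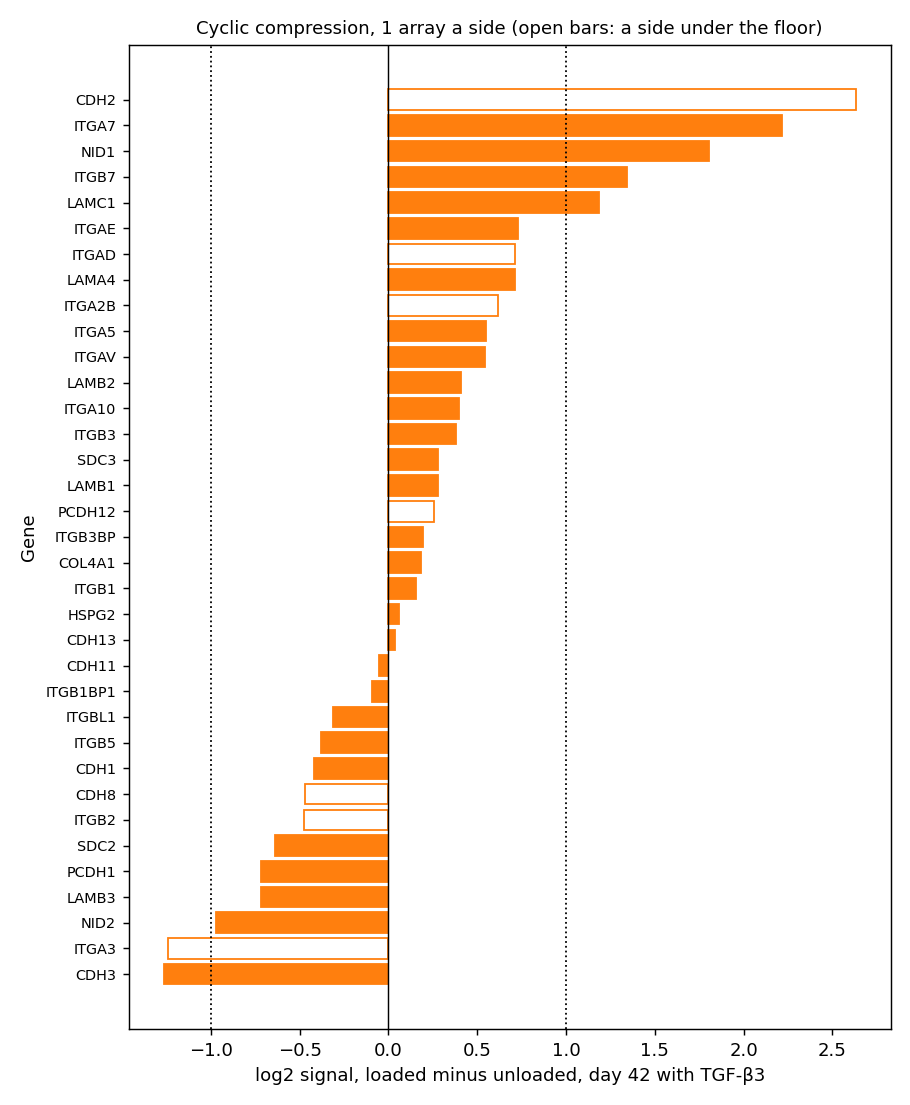
Log2 signal difference between the loaded and the unloaded construct, both at day 42 with TGF-beta3, for the 35 genes above the floor on at least 1 of these arrays, with open bars where a side was under the floor and dotted lines at 2-fold. CDH2 at 2.63, a bound, and ITGA7 at 2.21 stand highest, and CDH3 at -1.27 lowest.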

How the data were processed

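Per the submitters' processing notes the authors made the deposited signal intensity of each probe set with MAS5, version not stated in the sources used here. RNA was linearly amplified before labelling, per the labels' protocols. Each array's trimmed mean signal was 150, so the arrays had been scaled to a common mean.

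Of 24128 probe sets, 112 controls were left out. Gene symbols came from the platform annotation, and all 49 symbols were the same in RefSeq by Entrez identifier. A pair of probe sets shared by several genes was left out. Values under the floor of 15.1 were set to it before log2. A difference of at least 2-fold counted as higher or lower, given as "at least" where 1 side was under the floor. A limma mean over an array under the floor is bounded by the floor too. TGF-beta3 was tested with limma 3.58.1 in R 4.3.3 on the 4 unloaded arrays of days 21 and 42, with a day term, a variance trend and Benjamini-Hochberg adjustment over 14839 probe sets that exceeded the floor on 2 or more of them. Residual degrees of freedom numbered 1 and the variance prior was worth 49.8. It was tested on simulated data, where it missed most changes of log2 1 and part of those of log2 2. A difference that did not pass is therefore not shown to be absent.

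All genes of the module are named, with values by array for those called or at least 2-fold apart, except ITGA3 in the loaded construct, where it was under the floor. Of each partner list the 2 highest and 2 lowest called genes are given with their statistics. FN1, POSTN, COL1A1 and COL1A2, as well as second probe sets, were chosen for naming once their values had been seen. The genes and lists were chosen with earlier results of these data known. Alternatives were a pseudocount, a median over the probe sets of each gene, no filter, no day term, no variance trend, and each array left out with no day term. Others were the loaded array used instead of the unloaded one, median centring, quantile normalization and a floor at the 25th or the 60th percentile. Scaling to the spikes was added after seeing the data. Tables and figures were made in Python 3.11.15 with pandas 2.3.3, numpy 2.4.6 and matplotlib 3.10.9.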

Additional observations from a re-analysis of the deposited data

Results flagged for a closer look

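ITGAE, the integrin alpha chain known from lymphocytes in epithelia, stood on opposite sides at the 2 days. With TGF-beta3 it was higher by log2 0.84 at day 21 (1435 against 804 without TGF-beta3) and lower, at -0.75, at day 42 (698 against 1176 without TGF-beta3). There was 1 array per condition, and the difference between the days was not tested. In the loaded day 42 construct with TGF-beta3 the signal was 1159. ITGAE was measured by 1 probe set.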

How the results depend on the processing

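No paired analysis was possible because there was 1 array per condition and no replicate number to share; day was a term of the fit, and without it 3 genes fell in place of 8 and SDC2 still rose. The count of genes that fell was 7 or 8 in most settings, but 5 without the variance trend and 0 without the filter. Calls over all genes dropped as well. The fit called 1954 of 14839 probe sets, but 1030 without the variance trend, 570 without the day term and 0 without the filter. The count that rose, 1, was 2 after quantile normalization, with the pseudocount or with the loaded array in place. It was 3 with the 60th percentile floor, 4 with the median of probe sets and 0 with median centring, spike scaling, no filter or no variance trend. The 7 genes at least 2-fold apart with loading were 14 with a 25th percentile floor and 1 with a 60th percentile floor. Day 42 against day 21 with TGF-beta3 gave 10 genes, but 17 with spike scaling and 6 with the 60th percentile floor. The same step without TGF-beta3 gave 2, but 4 after quantile normalization or median centring and 1 with the 60th percentile floor, the pseudocount or the median of probe sets. LAMC1 lost its call in 8 of 15 settings, CDH13 in 7, SDC2 in 6, CDH2 and NID2 in 4 each, COL4A1 in 3, CDH11 and NID1 in 2 each and LAMB1 in 1. None of these 9 turned its sign, and the cause of the losses was not tested. The settings counted include the fits with an array left out, which left 1 array on a side. Scaling moved all genes together: their median log2 difference with TGF-beta3 over both days was 0.14, but -0.09 with median centring and -0.62 with spike scaling. Some genes that had not passed turned sign. With spike scaling these were HSPG2 (-0.12), ITGA10 (-0.43), ITGA3 (-0.53), ITGA5 (-0.40), ITGAE (-0.77), ITGAV (-0.67), ITGB1BP1 (-0.36), ITGB3 (-0.69) and LAMB2 (-0.31). With median centring they were ITGAE (-0.20), ITGAV (-0.11) and ITGB3 (-0.13), after quantile normalization ITGB5 (-0.019), with the floor at the 25th percentile ITGA3 (-0.050), with the median of probe sets CDH1 (0.10) and ITGB3 (-0.046), and with the loaded array in place ITGB1 (0.079) and LAMA4 (0.26). With each array left out in turn the mean log2 difference crossed 0 for ITGA3 (-0.035 to 0.91), ITGA5 (-0.018 to 0.83), ITGAE (-0.48 to 0.56), ITGAV (-0.39 to 0.66), ITGB1 (-0.13 to 0.13), ITGB3 (-0.47 to 0.69), ITGB3BP (-0.68 to 0.19), LAMA4 (-0.37 to 0.18) and LAMB2 (-0.11 to 1.11). The fits with an array left out had no day term, and in them the side left with 1 array is assumed to vary like the rest. Dim genes are limited by the floor, where values have no order.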
